A study of Mus musculus with 6 samples.

Results

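Glycogen synthesis and breakdown genes are the enzymes and regulators that store glucose in muscle as glycogen and release it again. The 9 genes described here were chosen by symbol, as the rows of the deposited count table whose Ensembl ID carries that symbol: Ugp2, Gyg, Gys1, Gbe1, Pygm, Phka1, Phkb, Phkg1 and Ppp1r3a. All 9 were found among the 51911 genes of the table, and all 9 passed the filter on low counts that left 16593 genes for testing. RNA came from gastrocnemius, a mixed but mainly fast-twitch calf muscle, of male mice. There were 3 libraries from HSA-PGC-1a3 transgenic mice (genotype alpha3_tg) and 3 from wild-type mice. PGC-1a3 is an isoform of the coactivator PGC-1alpha, and the human skeletal actin (HSA) promoter drives a transgene in skeletal muscle fibres. Age, strain, feeding state and the number of transgenic lines or of animals per library are not given in the sources used here, so p-values measure the spread between these libraries.

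In muscle, glucose 6-phosphate is turned into glucose 1-phosphate and then, by UDP-glucose pyrophosphorylase, into UDP-glucose, the building block of glycogen. Glycogenin starts the chain, glycogen synthase extends it and the branching enzyme adds branch points. Glycogen phosphorylase takes the chain down again, and it is switched on by phosphorylase kinase, a complex of alpha, beta, gamma and calmodulin subunits that answers to calcium and adrenaline. Protein phosphatase 1, brought to the glycogen particle by targeting subunits, reverses these phosphorylations. Mutations in human PYGM cause McArdle disease, in which muscle cannot use its glycogen. On GRCm38 the synthesis genes lie on separate chromosomes, with Ugp2 at chr11:21321138-21371201 (minus strand), Gyg at chr3:20122084-20155317 (minus strand), Gys1 at chr7:45434844-45456619 (plus strand) and Gbe1 at chr16:70313949-70569716 (plus strand). The breakdown genes are Pygm at chr19:6384399-6398459 (plus strand), Phka1 at chrX:102513975-102644246 (minus strand), Phkb at chr8:85840959-86061376 (plus strand) and Phkg1 at chr5:129863421-129898549 (minus strand), and the phosphatase subunit gene is Ppp1r3a at chr6:14713977-14755274 (minus strand).

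Transgenic libraries held 26190221 to 32593108 counts each, and wild-type libraries 25532146 to 40846872. As a check of the labels, Ppargc1a was counted 73513 to 120862 times per transgenic library, against 1179 to 1809 times per wild-type library. CPM is the read count relative to library size, here with sizes scaled by TMM factors, which centre the libraries on the bulk of the genes. Of 6 skeletal muscle fibre markers (Acta1, Ckm, Des, Tnnt3, Myh4 and Mb), every one was abundant, with a sum of 59870 to 64950 CPM in the transgenic and 133400 to 141300 CPM in the wild-type samples. The liver markers Alb, Apoa1 and Ttr had at most 23 counts in any library. The TMM factors were 1.146 to 1.148 for the transgenic and 0.851 to 0.885 for the wild-type samples. Dropping them shifted the median of all genes by 0.396 on the log2 scale, so the size of each change below depends on this choice.

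Of the 9 glycogen genes, 8 fell in the transgenic muscle and 0 rose, against 25.2% of all tested genes that fell, 25.5% that rose and 50.7% that did either. A gene was called where its p in edgeR's quasi-likelihood test, adjusted over all genes by the Benjamini-Hochberg method, was under 0.05. Without TMM factors 7 of the 9 were called lower and 1 higher, in a setting that called 8.73% of all genes lower and 61% in either direction. With TMM scaling the phosphorylase gene Pygm and the kinase genes Phka1, Phkb and Phkg1 fell most, to between 34.0% and 44.0% of the wild-type level. The synthesis genes Ugp2, Gyg and Gys1 fell to between 64.8% and 69.8%, Ppp1r3a to 59.1%, and the branching enzyme gene Gbe1 did not pass the test. The median log2 fold change was -0.76 over the 9 genes and -0.016 over all tested genes. In bulk muscle, fewer cells of a type and less RNA per cell cannot be told apart.

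Fibre markers moved in the same libraries. Of the 6 skeletal muscle fibre markers 5 fell and 0 rose, with a median log2 fold change of -1.07. With library totals alone 4 of these 6 were called lower and 1 higher (median -0.68). Of 11 fast-fibre markers 9 fell and 1, Myh1, rose, with a median log2 fold change of -1.18. Their summed level was 80880 to 82850 CPM per transgenic library, against 153800 to 164400 CPM per wild-type library. Myh4 and Tnnt3 are in both this list and the skeletal muscle fibre list, so their falls are counted in each. Of 8 slow-fibre markers 1, Myoz2, fell, 0 rose and 7 were not called, with a median log2 fold change of 0.73. Their sum was 1287 to 2881 CPM per transgenic library, against 878 to 2101 CPM per wild-type library. The 7 uncalled markers lay between -1.26 (Myl3) and 1.16 (Atp2a2). Their SEs ran from 0.36 (Myl2) to 0.92 (Tnni1), so their direction stays undecided. With library totals alone 1 slow-fibre marker was called higher and 1 lower (median 1.14). In that setting 8 fast-fibre markers were called lower and 1 higher (median -0.78). The part of fibre composition in the glycogen gene results was not tested. All 6 endothelial and all 4 smooth muscle markers also fell, with sums of 285 to 306 against 359 to 383 CPM and of 142.5 to 149.8 against 214.1 to 250.5 CPM (transgenic against wild type); with library totals alone 0 of the 6 endothelial (median 0.031) and 2 of the 4 smooth muscle markers were called. In the same order, the sums were 41.4 to 51.3 against 32.4 to 50.9 CPM for 5 macrophage, 131 to 159 against 177 to 286 CPM for 5 adipocyte, 855 to 1005 against 1001 to 1200 CPM for 4 fibroblast and 37.2 to 39.9 against 45.7 to 57.2 CPM for 3 red blood cell markers. Among these, Cd68 rose (1.40, adjusted p = 1.27e-04) as the sole call of the macrophage list, and 1 adipocyte marker (Fabp4), 1 fibroblast marker (Col1a1) and 2 red blood cell markers (Hba-a1 and Hbb-bs) fell. With library totals alone 0 markers of these 4 lists were called lower, and 1 macrophage and 1 fibroblast marker were called higher. The part of these cell types in the glycogen gene results was not tested.

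**Figure D1:**
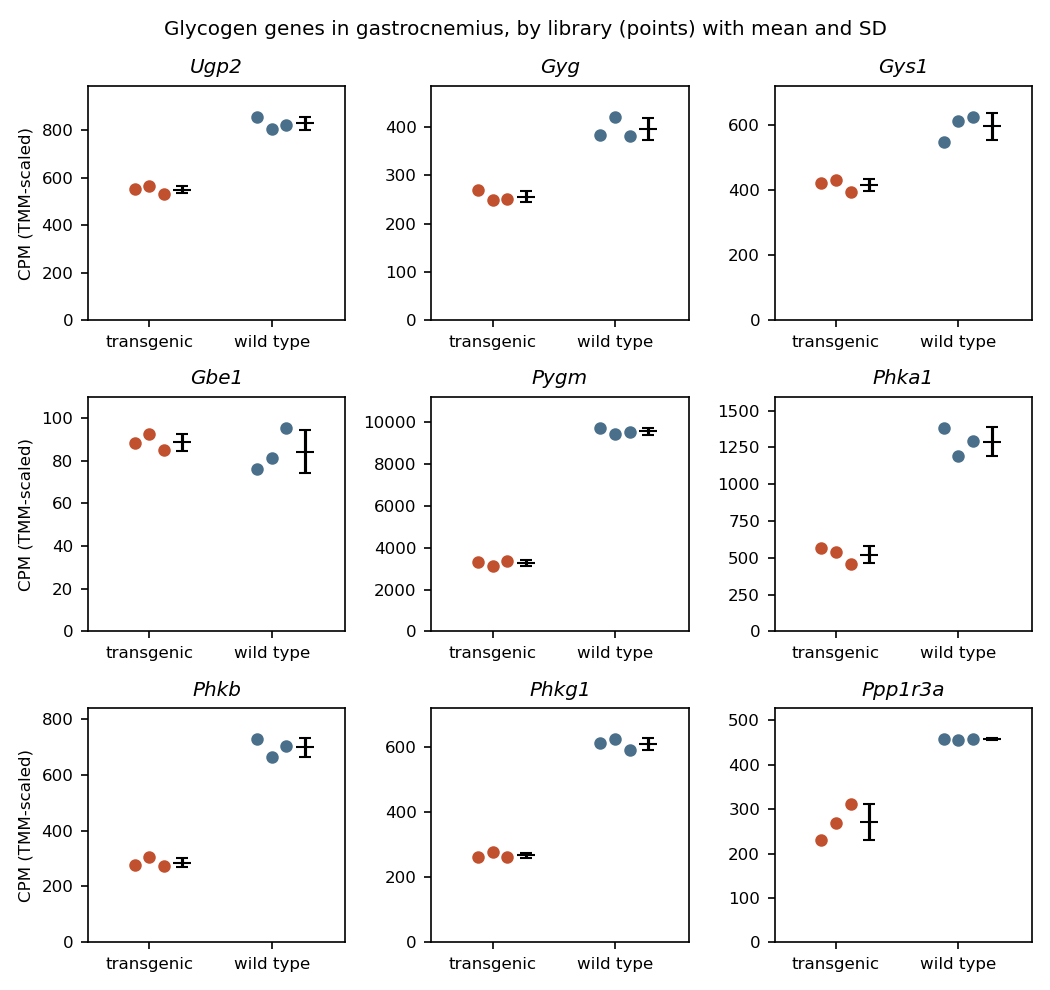
CPM (TMM-scaled) of the 9 glycogen genes in each library, transgenic left and wild type right, every axis from 0, with the mean and SD of 3 libraries beside the points. In 8 panels all transgenic points lie under all wild-type points; in the Gbe1 panel they overlap.

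Pygm encodes the muscle form of glycogen phosphorylase, which cuts glucose units off the ends of glycogen. It had 3293, 3101 and 3358 CPM in the transgenic libraries, against 9726, 9422 and 9497 CPM in the wild-type libraries. The coefficient of variation was 4.11% among transgenic and 1.66% among wild-type samples, and the genotypes did not overlap. Pygm fell by 1.55 on the log2 scale (SE 0.062, 95% interval -1.69 to -1.42, adjusted p = 3.08e-08), to a level 2.94-fold lower, and it ranked 34 by p among all tested genes. It alone took 0.355% to 0.385% of the counts of a transgenic library, against 0.801% to 0.860% of a wild-type one.

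The genes of the kinase that activates phosphorylase fell to a similar degree. Phka1, on the X chromosome, encodes the muscle form of the regulatory alpha subunit, and it had 570, 540 and 456 CPM in transgenic libraries, against 1385, 1189 and 1295 CPM in wild-type libraries. The third transgenic library was the lowest of all, and the spread among transgenic libraries (coefficient of variation 11.35%) was wider than for the other kinase genes. Phka1 fell by 1.31 (log2, SE 0.092, adjusted p = 1.09e-06).

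Phkb, the gene of the regulatory beta subunit, had 277, 304 and 275 CPM in transgenic libraries, against 729, 663 and 701 CPM in wild-type libraries. Every transgenic value was under every wild-type value, and Phkb fell by 1.29 (log2, SE 0.067, adjusted p = 1.30e-07). Phkg1 encodes the muscle form of the catalytic gamma subunit. It had 264, 277 and 263 CPM in transgenic libraries, against 612, 627 and 590 CPM in wild-type libraries. These groups did not overlap either, and Phkg1 fell by 1.19 (log2, SE 0.059, adjusted p = 1.02e-07). With TMM scaling Pygm and the 3 kinase genes each lay at least 2-fold lower in the transgenic muscle, as did 4.42% of all tested genes. The log2 values with library totals alone were -1.16 for Pygm, -0.91 for Phka1, -0.90 for Phkb and -0.79 for Phkg1. Only Pygm was then at least 2-fold lower.

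Ugp2 encodes the pyrophosphorylase that makes UDP-glucose. It had 553.1, 562.5 and 531.7 CPM in transgenic libraries, against 856.2, 805.1 and 821.2 CPM in wild-type libraries, with no overlap. Its log2 fold change was -0.59 (SE 0.060, adjusted p = 1.25e-05). Gyg, the glycogenin gene, had 269, 248 and 251 CPM in transgenic libraries, against 383, 421 and 380 CPM in wild-type libraries, also with no overlap. Its log2 fold change was -0.63 (SE 0.063, adjusted p = 1.26e-05). The values with library totals alone were -0.20 for Ugp2 and -0.23 for Gyg.

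Gys1 encodes muscle glycogen synthase, the enzyme that lengthens the chain and the main point of control of synthesis. It had 421, 431 and 393 CPM in transgenic libraries, against 548, 611 and 625 CPM in wild-type libraries. The lowest wild-type library was still above every transgenic one. Gys1 fell by 0.52 (log2, SE 0.069, adjusted p = 9.75e-05), and with library totals alone the value was -0.12 and no longer passed (adjusted p = 0.129).

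Gbe1, the branching enzyme gene, had 88.2, 92.8 and 84.8 CPM in transgenic libraries, against 76.4, 81.1 and 95.6 CPM in wild-type libraries. The highest and the lowest values were both wild-type, so the groups overlapped. Its log2 fold change was 0.071 (SE 0.080, 95% interval -0.11 to 0.25, adjusted p = 0.489). With library totals alone Gbe1 was higher in the transgenic muscle at 0.47 (adjusted p = 6.74e-04), a setting in which 52.3% of all tested genes were called higher. In both settings Gbe1 lay close to the median of all genes, which was 0.38 with library totals alone.

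Ppp1r3a encodes the muscle subunit that holds protein phosphatase 1 on glycogen. It had 232, 268 and 312 CPM in transgenic libraries, against 459, 455 and 458 CPM in wild-type libraries. The transgenic libraries spread widely (coefficient of variation 14.8%) while the wild-type libraries were almost identical (0.405%), and the groups did not overlap. Ppp1r3a fell by 0.76 (log2, SE 0.094, adjusted p = 8.88e-05), and with library totals alone the value was -0.36. Over the 9 genes, 8 did not overlap between genotypes and lay lower in the transgenic muscle, against 29.5% of all tested genes (59.6% did not overlap in either direction).

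**Figure D2:**
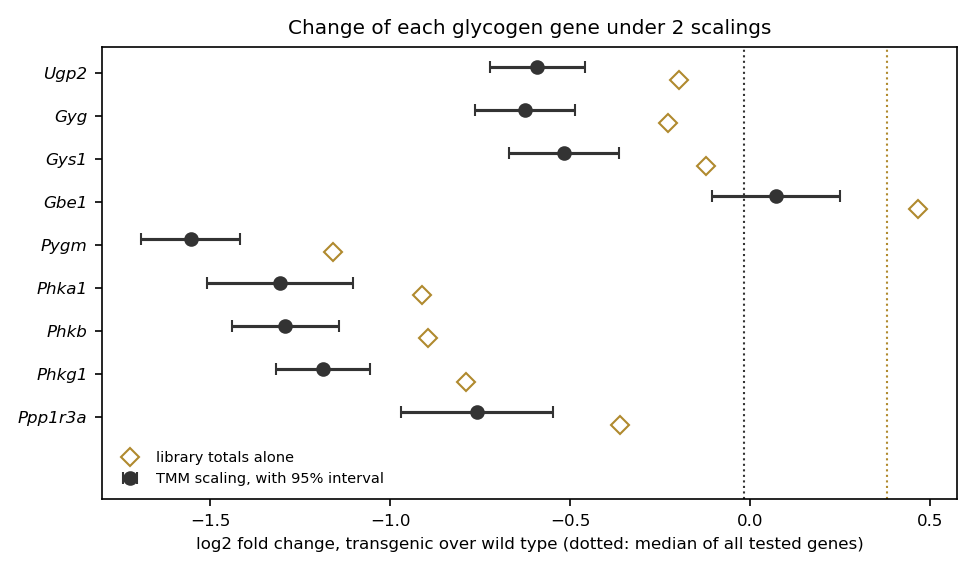
Log2 fold change (transgenic over wild type) of the 9 glycogen genes with TMM scaling (filled circles, 95% interval) and with library totals alone (open diamonds); dotted lines mark the median of all tested genes in each setting, -0.016 and 0.38. Pygm, Phka1, Phkb and Phkg1 lie furthest to the left in both settings, and Gbe1 lies next to the median of all genes.

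Because every value above rests on a scaling between libraries, pairs of glycogen genes were also set against each other within a library, where scaling cancels. For 8 pairs the mean log2 ratio of counts was compared between genotypes by an exact two-sided permutation test, whose smallest possible p with 3 against 3 libraries is 0.1. No pair could therefore pass, and adjusted over the 8 pairs the smallest value was 0.4. The counts of Pygm were 7.82, 7.19 and 8.54 times those of Gys1 in transgenic libraries, against 17.7, 15.4 and 15.2 times in wild-type libraries. Phosphorylase transcripts stood lower against synthase transcripts in every transgenic library, by 1.04 on the log2 scale (exact permutation p = 0.1; -1.10 to -0.97 when any 1 library was left out).

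The ratio of Gbe1 to Gys1 was 0.209, 0.215 and 0.216 in transgenic libraries, against 0.139, 0.133 and 0.153 in wild-type libraries. This put branching enzyme transcripts higher against synthase transcripts in every transgenic library, by 0.59 on the log2 scale (exact permutation p = 0.1). The Ugp2/Gys1 and Gyg/Gys1 ratios overlapped between genotypes, with differences of -0.075 and -0.11 (exact permutation p = 0.5 and 0.3). The Ppp1r3a/Gys1 ratio also overlapped (difference -0.25, exact permutation p = 0.3), with transgenic ratios from 0.549 to 0.792 and wild-type ratios from 0.733 to 0.837.

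Within phosphorylase kinase the ratios overlapped between genotypes. The Phka1/Phkb difference was -0.018 (exact permutation p = 0.9) and the Phkg1/Phkb difference 0.11 (exact permutation p = 0.2). Phka1 stood 0.25 higher against Pygm in the transgenic libraries on the log2 scale, again with overlap (exact permutation p = 0.3). With so few libraries these values do not show that the subunits changed alike.

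**Figure D3:**
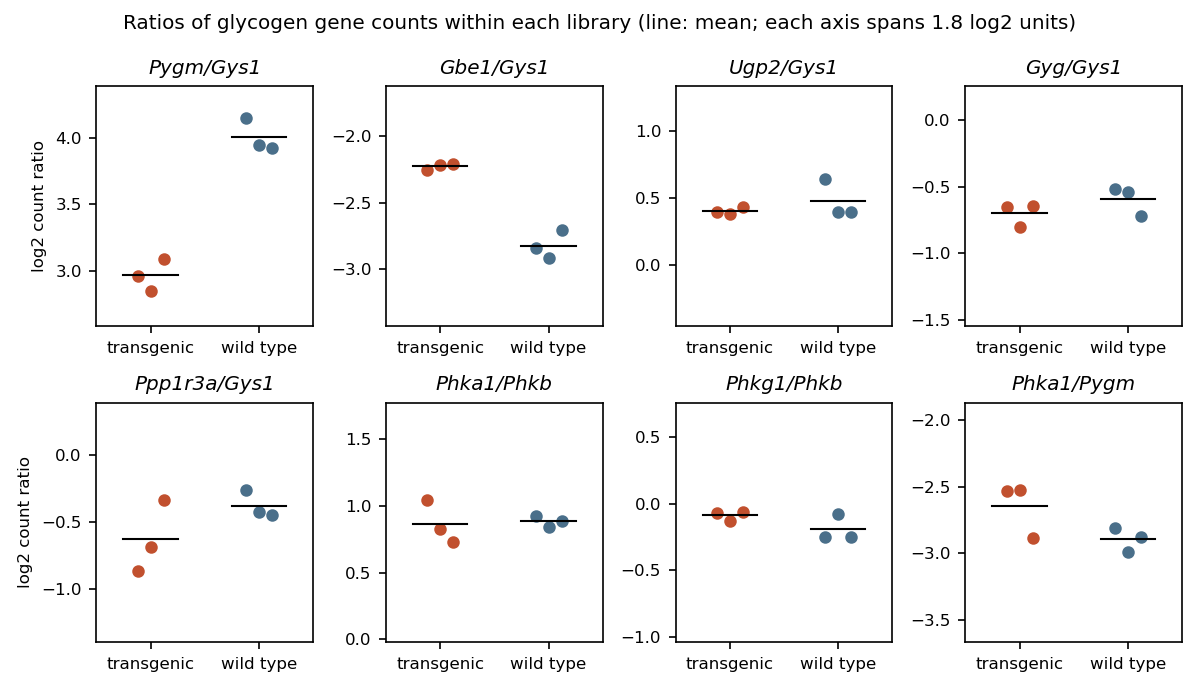
Log2 ratio of counts of 8 gene pairs within each library (points; line, mean of 3 libraries), transgenic left and wild type right, on axes of equal span. The transgenic points lie apart from the wild-type points for Pygm/Gys1 (lower) and Gbe1/Gys1 (higher), and the other 6 pairs overlap.

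The order of levels between genes was read per kilobase of annotated exon, which understates genes with many rarely used exons. Pygm was the highest of the 9 in both genotypes, at 1010 ± 41.6 CPM per kb in transgenic and 2967 ± 49.2 CPM per kb in wild-type libraries (SD, n = 3). Ugp2 came next, at 179 ± 5.14 CPM per kb in transgenic and 270 ± 8.52 CPM per kb in wild-type libraries. Gbe1 was the lowest, at 16.6 ± 0.745 CPM per kb in transgenic and 15.8 ± 1.87 CPM per kb in wild-type libraries. Phka1 held the fifth place in transgenic muscle (83.3 ± 9.46 CPM per kb), close to Gys1 (86.7 ± 4.08) within their spread, and the third place in wild-type muscle (206 ± 15.7), above Gyg (168 ± 9.71) and Gys1 (124 ± 8.49). Phkg1, Ppp1r3a and Phkb lay together in transgenic muscle (41.2 ± 1.26, 38.8 ± 5.76 and 38.4 ± 2.16 CPM per kb). In wild-type muscle Phkb (94.0 ± 4.46) and Phkg1 (93.7 ± 2.81) were alike within their spread, and Ppp1r3a was lower (65.6 ± 0.266). The exon length of Phkg1 takes in annotated exon upstream of its RefSeq start, so its level per length may be understated. Per length, Phka1 transcripts were 2.17 ± 0.242 times those of Phkb in transgenic and 2.19 ± 0.063 times in wild-type libraries (SD, n = 3).

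**Figure D4:**
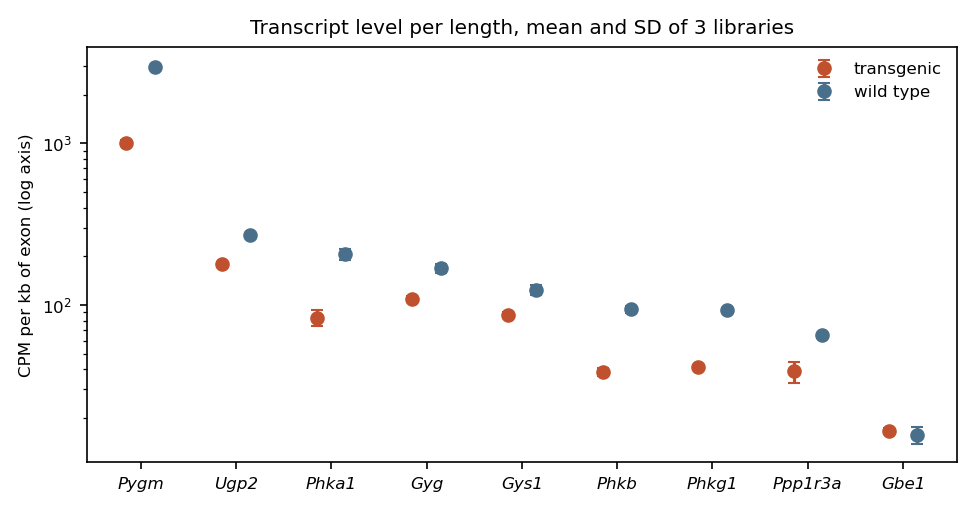
Level of the 9 glycogen genes per kilobase of annotated exon (log axis, CPM per kb; mean and SD of 3 libraries), transgenic left of wild type for each gene and genes ordered by wild-type level. Pygm is highest and Gbe1 lowest in both genotypes, and Phka1 lies beside Gys1 in transgenic muscle and above Gyg and Gys1 in wild-type muscle.

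Strand was ignored in counting, and fragments that touch more than 1 gene count for all of them, so genes that overlap on opposite strands share counts. Phkg1 shares 630 exonic bases with Sumf2, Gys1 310 with Ruvbl2 and Ugp2 78 with Gm12043. The other 6 genes share none. All counts of Sumf2 came to 19.2% of those of Phkg1 in transgenic and 19.8% in wild-type libraries. All counts of Ruvbl2 came to 14.6% of those of Gys1 in transgenic and 12.1% in wild-type libraries. With the neighbour's counts taken off in full, a setting added after seeing the data, the log2 ratio of mean CPM was -1.17 for Phkg1, -0.56 for Gys1 and -0.59 for Ugp2.

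The proximal promoters are shown for Pygm, Phka1 and Phkg1, which fell most among genes whose window held at most 9 annotated exonic bases, and for Gbe1, which did not pass. Each is the 250 bases upstream of the RefSeq start on the gene's strand (GRCm38.p6): Pygm at chr19:6384158-6384407 (plus strand), Phka1 at chrX:102644247-102644496 (minus strand), Phkg1 at chr5:129879089-129879338 (minus strand), inside the longer Phkg1 gene of the GENCODE annotation, and Gbe1 at chr16:70313699-70313948 (plus strand). Capitals mark the E-box CANNTG, the site that myogenic factors such as MyoD and myogenin read.
Pygm: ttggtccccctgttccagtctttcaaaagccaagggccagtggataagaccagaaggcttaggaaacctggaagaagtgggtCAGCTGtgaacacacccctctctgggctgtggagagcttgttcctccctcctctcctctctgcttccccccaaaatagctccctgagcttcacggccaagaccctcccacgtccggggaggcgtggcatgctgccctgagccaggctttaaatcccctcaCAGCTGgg
Phka1: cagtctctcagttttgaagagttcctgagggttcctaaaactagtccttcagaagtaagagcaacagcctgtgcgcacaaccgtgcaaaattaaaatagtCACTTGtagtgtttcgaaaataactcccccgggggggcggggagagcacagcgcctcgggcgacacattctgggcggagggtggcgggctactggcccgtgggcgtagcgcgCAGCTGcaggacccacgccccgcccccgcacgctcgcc
Phkg1: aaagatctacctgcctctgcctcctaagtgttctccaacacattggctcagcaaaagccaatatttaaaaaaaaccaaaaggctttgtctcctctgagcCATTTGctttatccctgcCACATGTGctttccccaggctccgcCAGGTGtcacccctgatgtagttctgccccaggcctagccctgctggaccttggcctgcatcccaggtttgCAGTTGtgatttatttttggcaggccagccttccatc
Gbe1: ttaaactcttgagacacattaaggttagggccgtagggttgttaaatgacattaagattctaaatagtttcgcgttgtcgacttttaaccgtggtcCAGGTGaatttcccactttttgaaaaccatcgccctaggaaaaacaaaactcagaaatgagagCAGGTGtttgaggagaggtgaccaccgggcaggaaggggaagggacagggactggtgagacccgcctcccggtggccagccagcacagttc
Pygm, Phka1 and Gbe1 each held 2 E-boxes and Phkg1 held 5, of which a pair overlaps by 4 bases. All 9 genes had at least 1 promoter in the RefSeq table, 10 promoters in all. An E-box stood in 9 of the 10 promoters (8 of the 9 genes, Phkb being without), and in 66.2% of all 32851 promoters. The sole E-box of Gyg lies within annotated Gyg exon, which fills 201 of the 250 bases of that window. The element TCAAGGTCA, read by the estrogen-related receptors that PGC-1alpha coactivates, and its core AAGGTCA stood in 0 of the 10 promoters on either strand, and in 0.387% and 4.08% of all promoters. The cyclic AMP response element TGACGTCA was in 0 of 10 (1.55% of all), and its part TGACG in 2 of 10, those of Phkb and Ppp1r3a (17.8% of all). These matches describe letters in a short window and say nothing of binding.

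The rest of the glycogen route moved in both directions. Of 26 further genes, chosen from textbook roles, 24 passed the filter on low counts, and of these 14 fell, 7 rose and 3 did not pass, against 25.2% of all tested genes that fell and 25.5% that rose. Their median log2 fold change was -0.35, against -0.016 over all tested genes. With library totals alone 9 of the 24 were called lower and 10 higher, in a setting that called 8.73% of all tested genes lower and 52.3% higher. Their median was then 0.045, against 0.38 over all tested genes.

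Pgm1, the phosphoglucomutase that links glucose 6-phosphate to glucose 1-phosphate on both the way in and the way out, had 682.5, 703.9 and 707.1 CPM in transgenic libraries, against 1642, 1500 and 1565 CPM in wild-type libraries. It fell by 1.17 (log2, SE 0.062, adjusted p = 1.49e-07), a value between those of the synthesis genes and Pygm; it shares 398 exonic bases with Itgb3bp. The related Pgm2l1 fell slightly (-0.25, SE 0.070, adjusted p = 0.0109) and was at 0.14 with library totals alone; without transgenic replicate 2 its call was lost (adjusted p = 0.0572), while Pgm2 did not pass (0.0060, SE 0.14, adjusted p = 0.976).

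Calm2 and Calm3 encode calmodulin, the calcium-sensing delta subunit of phosphorylase kinase, which also serves many other enzymes. Calm2 had 54.9, 69.6 and 62.8 CPM in transgenic libraries, against 115.1, 120.2 and 115.5 CPM in wild-type libraries, and fell (-0.91, SE 0.079, adjusted p = 4.89e-06). Calm3 had 224.7, 240.3 and 226.9 CPM in transgenic libraries, against 411.1, 428.4 and 376.0 CPM in wild-type libraries, and fell (-0.81, SE 0.064, adjusted p = 2.13e-06). Neither gene overlapped between genotypes.

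The liver and brain forms of these enzymes were minor. Gys2, the liver synthase gene, had 3 to 5 counts in transgenic and 8 to 14 counts in wild-type libraries and was not tested. Per length, Pygm made up 99.8% ± 0.0365 of the Pygm, Pygb and Pygl total in transgenic and 99.9% ± 0.0197 in wild-type libraries (SD, n = 3). Phka1 made up 98.2% ± 0.220 of Phka1 plus Phka2 in transgenic and 99.25% ± 0.0338 in wild-type libraries. Phkg1 made up 94.1% ± 0.0676 of Phkg1 plus Phkg2 in transgenic and 97.8% ± 0.205 in wild-type libraries, with the same limit from the annotated length of Phkg1. Both genes can share counts with a neighbour on the other strand, Phkg1 with Sumf2 and Phkg2 with Ccdc189. Ccdc189 had 1167 counts over all libraries, against 1008 for Phkg2 in transgenic and 681 in wild-type libraries. For these families the share of the muscle form was lower in every transgenic library, with an exact permutation p of 0.1 each (0.1 adjusted over the 5 families compared). Gys1 made up 99.95% ± 0.0165 of Gys1 plus Gys2 in transgenic and 99.87% ± 0.0451 in wild-type libraries, also with an exact permutation p of 0.1. The minor forms were Pygb (-0.45, SE 0.17, adjusted p = 0.0483), Pygl (0.64, SE 0.32, adjusted p = 0.132; 1.13, adjusted p = 0.00144, without wild-type replicate 1), Phka2 (-0.069, SE 0.11, adjusted p = 0.625) and Phkg2 (0.27, SE 0.094, adjusted p = 0.033). The calls of Pygb and Phkg2 were each lost under other settings and when single libraries were left out. Pygb did not pass with upper-quartile factors (adjusted p = 0.0629), with a filter of at least 10 counts in 3 libraries (0.0516) or with library totals alone (-0.058, adjusted p = 0.799), and Phkg2 did not pass in DESeq2 (adjusted p = 0.0997). Pygb missed the threshold on leaving out transgenic replicate 2 (adjusted p = 0.109) or 3 (0.149), and wild-type replicate 1 (0.153) or 3 (0.0617). Phkg2, which shares 876 exonic bases with Ccdc189, did not pass without transgenic replicate 1 (0.0551), 2 (0.0703) or 3 (0.0547) or wild-type replicate 2 (0.133) or 3 (0.0659).

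Among the subunits that target protein phosphatase 1 to glycogen, Ppp1r3c (PTG) was the highest per length in both genotypes. Its mean was 54.8 CPM per kb in transgenic and 136.5 CPM per kb in wild-type libraries, against 38.8 and 65.6 for Ppp1r3a. Ppp1r3c had 130.2, 167.4 and 150.5 CPM in transgenic libraries, against 345, 389 and 382 CPM in wild-type libraries. It fell by 1.32 (log2, SE 0.090, adjusted p = 1.64e-06). Per length, Ppp1r3a made up 38.3% ± 2.93 of the 7 targeting subunit genes in transgenic and 31.8% ± 1.45 in wild-type libraries (SD, n = 3; exact permutation p = 0.1). The genes of low level went both ways. Ppp1r3b fell (-1.37, SE 0.31, adjusted p = 0.00307), with at most 1.74 CPM in any library. Ppp1r3d (0.47, SE 0.16, adjusted p = 0.0313), Ppp1r3e (0.71, SE 0.12, adjusted p = 6.16e-04) and Ppp1r3f (1.28, SE 0.12, adjusted p = 6.92e-06) rose. The call of Ppp1r3d was lost without transgenic replicate 3 (adjusted p = 0.108) and without wild-type replicate 1 (0.12) or 3 (0.105). Ppp1r3f shares 2415 exonic bases with Gm36995 on the same strand, and fewer with Foxp3 and Flicr on the other strand. Gm36995 had 3902 counts over all libraries, against 1185 for Ppp1r3f in transgenic and 395 in wild-type libraries. The part of shared fragments in the rise of Ppp1r3f was not tested. Ppp1r3g, with at most 3 counts in a library, was not tested.

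Of the phosphatase catalytic subunit genes, Ppp1ca rose (0.45, SE 0.055, adjusted p = 5.36e-05) and Ppp1cb (-0.56, SE 0.066, adjusted p = 4.05e-05) and Ppp1cc (-0.54, SE 0.12, adjusted p = 0.00261) fell; with library totals alone Ppp1cc no longer passed (adjusted p = 0.293). Of the kinases that inhibit glycogen synthase, Gsk3a had 163, 160 and 162 CPM in transgenic libraries, against 105, 121 and 111 CPM in wild-type libraries, and rose (0.52, SE 0.061, adjusted p = 3.49e-05). It shares 820 exonic bases with 9130221H12Rik on the other strand, which had 6365 counts over all libraries. Gsk3a had 15777 counts in transgenic and 9106 in wild-type libraries. Ppp1ca shares 225 exonic bases with Rad9a on the other strand, which had 3807 counts over all libraries. Ppp1ca had 19840 counts in transgenic and 12026 in wild-type libraries. The part of shared fragments in the rises of Gsk3a and Ppp1ca was not tested. Gsk3b fell (-0.38, SE 0.055, adjusted p = 1.83e-04) but lay at 0.018 with library totals alone.

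Stbd1, a glycogen-binding protein that tethers glycogen to membranes, had 104, 127 and 120 CPM in transgenic libraries, against 51.0, 38.5 and 45.6 CPM in wild-type libraries. It rose by 1.38 (log2, SE 0.11, adjusted p = 1.35e-05), the highest fold change of the 24 tested genes. Gaa, the lysosomal enzyme that digests glycogen, had 201, 193 and 201 CPM in transgenic libraries, against 323.5, 333.4 and 316.0 CPM in wild-type libraries, and fell (-0.71, SE 0.052, adjusted p = 1.34e-06). Epm2a, the gene of the glycogen phosphatase laforin, fell as well (-0.62, SE 0.051, adjusted p = 2.93e-06). Nhlrc1, the gene of its partner ubiquitin ligase malin, passed narrowly (-0.33, SE 0.11, adjusted p = 0.0297). That call ended without transgenic replicate 1 (0.0506), 2 (0.1) or 3 (0.0684) or wild-type replicate 2 (0.133). It also ended in DESeq2 (adjusted p = 0.0668) and with no filter on low counts (0.0623), and the value was 0.072 with library totals alone.

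**Figure D5:**
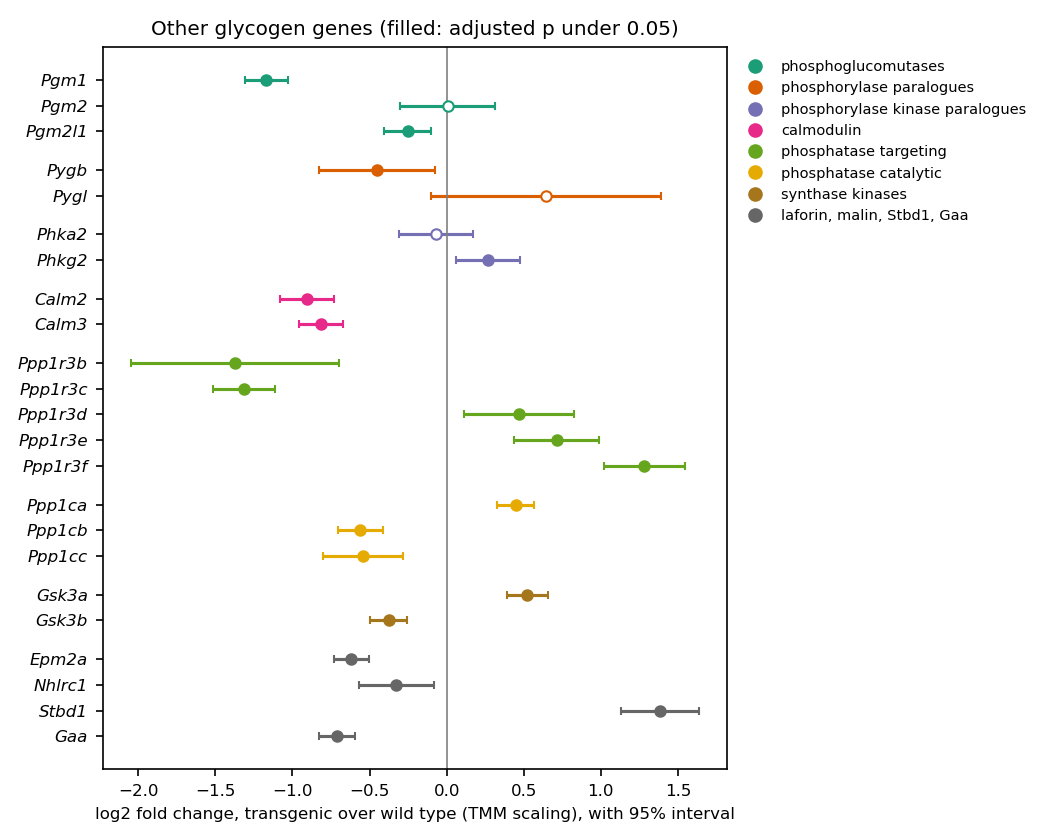
Log2 fold change (transgenic over wild type, TMM scaling) with 95% interval for tested genes of the wider glycogen route, coloured by role, filled where the adjusted p is under 0.05. Ppp1r3b, Ppp1r3c, Pgm1, Calm2 and Calm3 lie furthest to the left, and Stbd1 and Ppp1r3f furthest to the right.

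The genes whose profile over the 6 libraries was most like that of Pygm were sought by the root mean square difference in centred log2 CPM, among 8343 genes with at least 10 CPM in wild-type muscle. The nearest were Gpi1 (0.031), Gm26762 (0.033), Cnksr1 (0.041), Ldha (0.044) and Pgam2 (0.047). Their log2 fold changes ran from -1.635 (Ldha) to -1.514 (Pgam2), around the -1.554 of Pygm. The measure thus mostly picks genes with a like genotype difference and shows no further link between them. Gpi1, Ldha and Pgam2 encode enzymes of glycolysis or lactate production, and Gm26762 lies within Gpi1 on the other strand. Among the nearest to Gys1 were Naa16 (0.021), Apobec2 (0.025), Coq10a (0.026) and Rilp (0.027).

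The authors' deposited table, which lists genes past an absolute log2 fold change of 0.585, held 6 of the 9 genes. In the authors' deposited table the log2 fold changes were -1.55 for Pygm, -1.285 for Phka1, -1.275 for Phkb, -1.16 for Phkg1, -0.72 for Ppp1r3a and -0.62 for Gyg, which it lists as GYG1. Ugp2, Gys1 and Gbe1 were not among its rows.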

How the data were processed

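Frozen gastrocnemius was powdered for total RNA, from which Illumina libraries were made, per the labels' protocols. STAR 2.5.0a, the build GRCm38.p6 and DESeq2 are named in the submitters' processing notes. The authors counted fragments per gene with featureCounts 2.0.0, without strand and for every gene overlapped, per the file headers. The deposited count table holds raw counts. A second deposited table gives, by gene, the authors' log2 fold change and its p-value, raw and adjusted.

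Symbols, positions and exon lengths came from GENCODE M21 (GRCm38), which held 51633 of 51911 gene IDs. Low-count genes were removed with filterByExpr, and the rest were scaled with TMM and tested in R 4.3.3 with edgeR 4.0.16 (robust quasi-likelihood fit, genotype as sole term, Benjamini-Hochberg adjustment, threshold 0.05). The SE is the absolute log2 fold change over the square root of F. The biological coefficient of variation was 10.7%, and the code was tested on simulated data. One count equals 0.0268 to 0.0446 CPM. No library repeated another: within a genotype, chi-square over its degrees of freedom was 10.8 to 26.1.

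All 9 members are named, and of the 26 further genes those past the threshold or with at least 5 CPM in 1 genotype; others were named after their values were seen. Likeness used log2 CPM with a prior count of 2. The debranching enzyme was not analysed here, and some genes counted in the lists are not reported by name. Members, lists and tests were chosen with earlier results of these data known. Alternatives were DESeq2 1.42.0, limma-voom (limma 3.58.1), other scalings and filters, a replicate block and single libraries left out.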

Additional observations from a re-analysis of the deposited data

How the results depend on the processing

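The 8 falls among the 9 glycogen genes kept their direction under every alternative run, and apart from Gys1 with library totals alone each stayed past the threshold. The scaling mattered most. With library totals alone 8676 genes were higher and 1448 lower in the transgenic muscle, 1 glycogen gene (Gbe1) was called higher, the median of the 9 was -0.36, and 9 of the further genes were called lower. In that setting Gsk3b (0.018), Nhlrc1 (0.072), Pgm2l1 (0.14) and Phka2 (0.33) turned above 0. This follows from the shift of all genes by 0.396. Leaving out single libraries moved the median of the 9 between -0.64 (without transgenic replicate 1) and -0.86 (without transgenic replicate 3). Shares of raw counts, not per length, changed the genotype difference to -2.32 percentage points for Phkg1 and -0.232 for Pygm.

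Same-numbered libraries did not deviate together (correlations of deviations 0.101, -0.0884 and -0.21), so the numbers were not taken as pairs. With the replicate block 4165 genes were higher and 4166 lower, with 8 glycogen genes lower, and no call among the 9 or the further genes changed. For the within-library ratios the replicate block is no check. With equal groups the mean genotype difference is the same with and without it by arithmetic (-1.04 for Pygm/Gys1). With 3 libraries a group and TMM scaling, any change of Gbe1 between -0.11 and 0.25 on the log2 scale stays undecided. With library totals alone Gbe1 was at 0.47, outside that interval. Low-level genes such as Pygb, Phkg2, Ppp1r3d and Nhlrc1 gave calls that single libraries could end.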
